A study of Canis lupus familiaris with 6 samples.

Results

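The S100 genes encode small calcium-binding proteins, and 10 of them were examined in CPEK cells, a line of canine epidermal keratinocytes. The members were chosen by gene symbol from the 35993 genes of the deposited gene table and are S100A2, S100A4, S100A6, S100A8, S100A9, S100A10, S100A11, S100A12, S100A14 and S100A16. Each of the 10 symbols had 1 row, and all 10 genes passed edgeR's filter on low counts, which kept 14708 genes. RNA-Seq libraries came from 3 gas-treated samples and 3 samples treated directly with cold atmospheric microwave plasma (CAMP, a partly ionized gas applied near room temperature), here called dCAMP. Both groups were wild-type CPEK cells grown in DMEM with fetal bovine serum, penicillin and streptomycin. The dCAMP group was exposed for 30 s, and the control was treated with gas in place of plasma. In both groups the medium was replaced after 15 min, and RNA was taken 24 h later. A single cell line was used, and the labels do not say whether the libraries of a group came from separate cultures, so p-values measure only the spread between these samples.

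S100 proteins are small EF-hand proteins that mostly act as dimers. Binding of calcium opens a surface through which the dimer holds its partner, often an annexin, a cytoskeletal protein or a transcription factor, and some S100 proteins are also released and bind receptors on other cells. In the epidermis, S100A2 and S100A6 are known from proliferating basal keratinocytes. S100A8, S100A9 and S100A12, the calgranulins, are best known from neutrophils and are also made by keratinocytes under stress or inflammation.

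The labelled cell type was checked against its markers. All 11 keratinocyte markers, among them the basal keratins KRT5 and KRT14, were present, with a summed level of 42754 to 51909 TPM (a level scaled for length and to the same total in each library) in gas and 41180.5 to 43220.2 TPM in dCAMP. The summed levels of the fibroblast, melanocyte, leukocyte and endothelial markers did not exceed 4.78 TPM in any library. The leukocyte markers PTPRC, CSF3R and CD3E had 0 counts in all 6 libraries. Of the other leukocyte markers, ITGAM had 151 to 208 counts per library, CD14 had 21 to 75, CD79A 0 to 9 and MPO 0 to 6. The leukocyte list summed to 1.77 to 2.31 TPM in gas and 2.40 to 3.49 TPM in dCAMP.

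The libraries held 43084921 to 54082634 counts on genes. The gas libraries were not alike. The median absolute log2 difference of a gene from the mean of the dCAMP libraries was 0.388 in gas 1, 0.226 in gas 2 and 0.108 in gas 3. Each dCAMP library lay at 0.0696 to 0.0799 from the mean of the other dCAMP libraries. Gas 1 thus stood farthest from the treated libraries and gas 3 nearest to them, and results are given below with all 6 libraries, without gas 1 and without gas 3. In bulk RNA, fewer cells that express a gene and less of its RNA per cell cannot be told apart.

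S100 transcripts were abundant in these keratinocytes. Levels between genes were compared as FPKM, the fragments of a gene scaled for its transcript length and for the depth of the library. S100A2, a nuclear S100 protein and a known target of p63, had the highest mean at 2461 ± 398 FPKM (SD over 6 libraries, both groups together), which ranked 12 among all genes of the table. S100A6 (calcyclin) followed at 1919.6 ± 309 FPKM and rank 19, and S100A8 at 1197 ± 212 FPKM and rank 50. These were the 3 members among the 100 genes with the highest mean FPKM.

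The annexin A2 partner S100A10 had 666 ± 22.2 FPKM and rank 123. S100A9 had 445 ± 157 FPKM and S100A16 had 432 ± 77.2 FPKM, at ranks 164 and 167. S100A14 had 322 ± 64.3 FPKM, S100A11 had 287 ± 31.4 FPKM and S100A12 had 215 ± 69.0 FPKM. S100A4, known as metastasin for its part in the motility of mesenchymal and tumour cells, was lowest at 119 ± 14.1 FPKM and still ranked 605. The fold between the highest and the lowest mean was 20.8.

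The order was firm at the top. S100A2 exceeded S100A6 in 6 of 6 libraries, by 1.23 to 1.35 times, although the ranges of their FPKM overlapped. The range of S100A6, 1669 to 2484 FPKM, did not overlap that of S100A8, 856 to 1438 FPKM, which in turn lay above that of S100A10, 634 to 699 FPKM. Lower down, neighbours were closer. S100A10 exceeded S100A9 in 5 of 6 libraries and S100A9 exceeded S100A16 in 4 of 6, so these genes could not be ranked beyond their spread. S100A16, S100A14, S100A11, S100A12 and S100A4 kept their order in 6 of 6 libraries, but the ranges of neighbours overlapped, and S100A11 and S100A12 were nearly equal in 1 library.

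**Figure D1:**
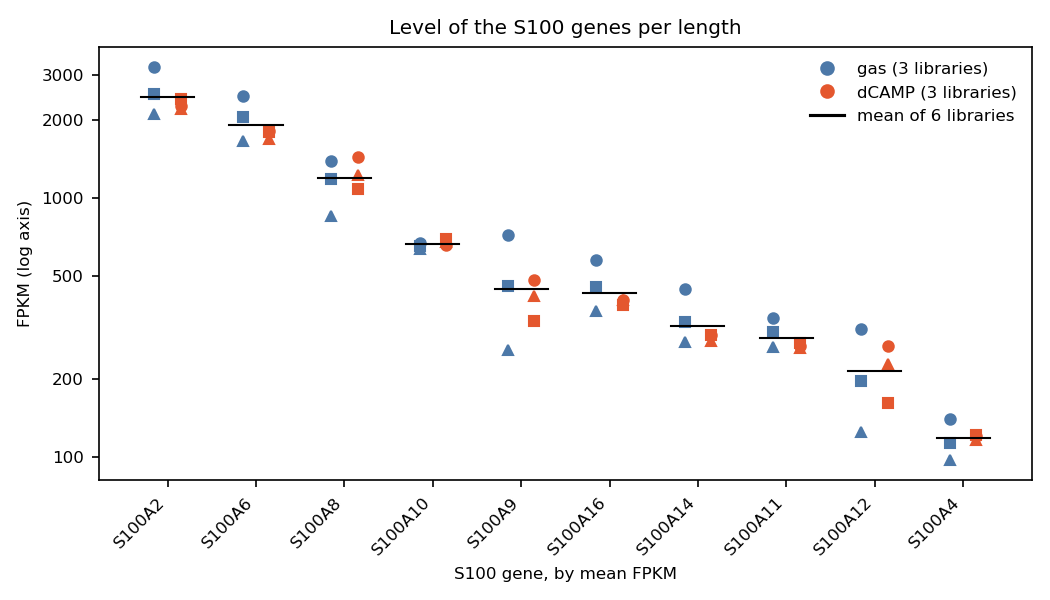
FPKM (log axis) of the 10 S100 genes in 3 gas and 3 dCAMP libraries, ordered by mean; each point is a library and each line the mean of 6. S100A2 and S100A6 lie above all others, S100A10 is the tightest gene, and S100A9 spreads from 260 to 719 FPKM across its neighbours.

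Together the 10 genes supplied 2.04%, 1.65% and 1.38% of all TPM in gas 1, 2 and 3, and 1.70%, 1.58% and 1.61% in dCAMP 1, 2 and 3. The group means were 1.69% ± 0.33 and 1.63% ± 0.063 (SD, n = 3), and the dCAMP values lay inside the gas range. S100A2 and S100A6 made up 50.9% to 56.8% of the members' TPM in each library. The calgranulins S100A8, S100A9 and S100A12 supplied 0.479%, 0.365% and 0.257% of all TPM in gas 1 to 3 and 0.464%, 0.330% and 0.400% in dCAMP 1 to 3, and the groups again overlapped.

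The members lie in 2 places of the CanFam3.1 genome. S100A14, S100A16, S100A2, S100A4, S100A6, S100A8, S100A12 and S100A9 follow each other in this order on chromosome 7, within an S100 cluster of 13 genes that spans 141537 bases (chr7:43428538-43570074). S100A2, the most abundant, is at chr7:43473788-43482073, and the calgranulins S100A8 (chr7:43540667-43541604), S100A12 (chr7:43554078-43555470) and S100A9 (chr7:43566993-43570074) stand at 1 end. S100A10 (chr17:60984138-60994915) and S100A11 (chr17:61020136-61050513) lie on chromosome 17 with 25220 bases between them. The locus of S100A10 overlaps LOC111090730, and whether reads were counted by strand is not given in the sources used here, so its count is less certain than those of the other 9.

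The main comparison asked whether plasma exposure altered S100 expression relative to the gas control. No S100 gene was called. With Benjamini-Hochberg adjustment of edgeR's quasi-likelihood p over 14708 genes, 0 of 10 members had an adjusted p under 0.05, as did 0% of all genes tested. At an unadjusted p under 0.05 the count of members was again 0 of 10, against 20.7% of all genes. The study's methods give a rule of a change of at least 2-fold at an unadjusted p under 0.05 from DESeq2, and elsewhere the study states it with an adjusted p. Applied to the unadjusted p of edgeR, it called 0 of 10 members and 1.09% of all genes. DESeq2 called 0 members by adjusted p, against 2.59% of the 11627 genes to which it gave an adjusted p. The members' edgeR adjusted p ranged from 0.301 to 0.911.

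The differences were small. The log2 fold change of dCAMP over gas was below 0 for 6 members, against 47.6% of all genes, and the largest in size was -0.26. The median over the members was -0.18, and over all genes tested it was 0.03. Scaled by upper-quartile factors, 9 members were below 0 instead of 6, with a median of -0.27 and a median of -0.06 over all genes. For 9 of 10 members the 95% interval of the log2 fold change lay inside a 2-fold change in both directions, as it did for 68.5% of all genes. The exception was S100A9.

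The count of calls depended on which gas libraries entered the test. Without gas 3, edgeR called 4 of 10 members by adjusted p, S100A6, S100A11, S100A14 and S100A16, all lower in dCAMP, where 33.1% of all genes were called and 18.1% were called lower. Without gas 1, 0 of 10 members were called, and 0.00667% of all genes. With limma's voom and sample quality weights on all 6 libraries, 5 members were called, S100A2 and the same 4, again all lower in dCAMP, where 60.8% of all genes were called and 28.2% were called lower.

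**Figure D2:**
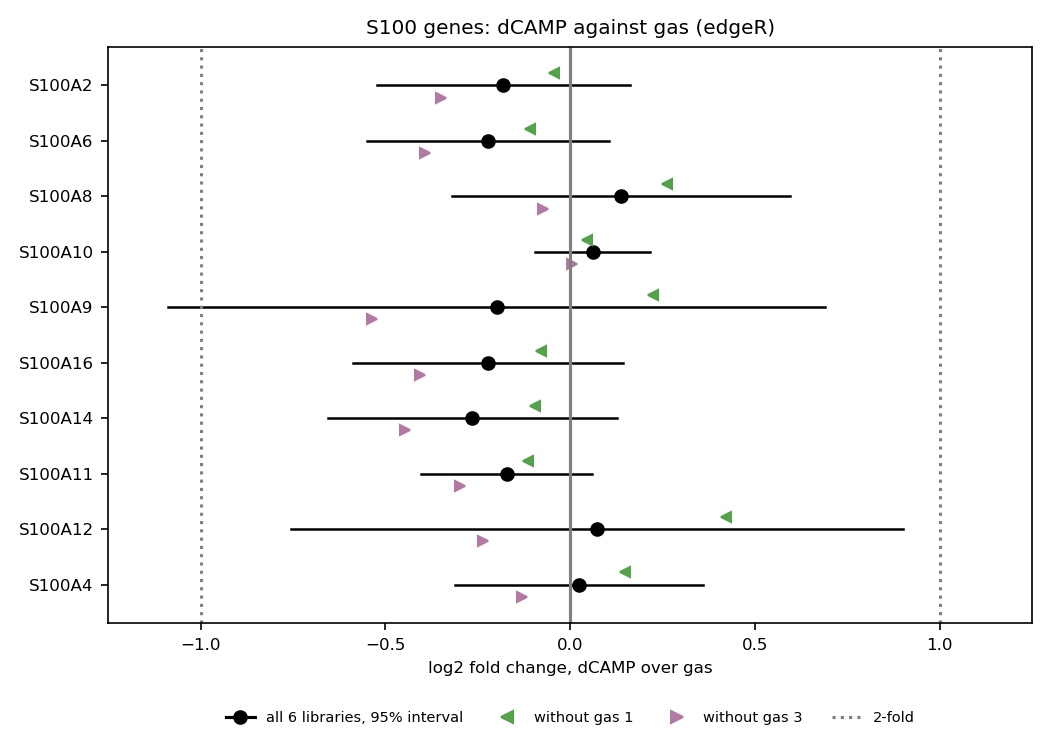
Log2 fold change of dCAMP over gas for each S100 gene (edgeR); black points and lines are the estimate and 95% interval with all 6 libraries, triangles the estimates without gas 1 and without gas 3, and dotted lines a 2-fold change. All intervals include 0, and the estimate without gas 3 lies left of the estimate with all libraries for each of the 10 genes.

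S100A2 (gene ID 612326) had 2578, 2080 and 1761 CPM (counts scaled to the size of the library with TMM factors) in gas 1, 2 and 3, and 1875, 1974 and 1815 CPM in dCAMP 1, 2 and 3. The dCAMP libraries all lay between gas 3 and gas 2, and the gas libraries spread more widely than the difference between the groups. The means were 2140 ± 412 and 1888 ± 80.0 CPM (SD, n = 3), with a log2 fold change of -0.18 (SE 0.14, 95% interval -0.52 to 0.16, edgeR adjusted p = 0.407). It was -0.04 without gas 1 and -0.35 without gas 3 (edgeR adjusted p = 0.0535).

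S100A6 (480143), which binds the ubiquitin ligase component CACYBP, followed the same course. Its level was 1348, 1149.7 and 939.8 CPM in gas and 1014, 994 and 940.5 CPM in dCAMP. Gas 1 and gas 2 lay above all dCAMP libraries, whereas gas 3 lay just below them. This gave a log2 fold change of -0.22 (SE 0.14, 95% interval -0.55 to 0.11, edgeR adjusted p = 0.323). Without gas 1 it was -0.11, and without gas 3 it was -0.39 (edgeR adjusted p = 0.0293).

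S100A14 (612322), an S100 protein of epithelia with an altered calcium-binding loop, had the largest difference. It had 520, 397 and 335.5 CPM in gas and 357, 351 and 335.1 CPM in dCAMP. Gas 3 sat between dCAMP 2 and dCAMP 3, while gas 1 and gas 2 were higher than all treated libraries. Its log2 fold change was -0.26 (SE 0.16, 95% interval -0.65 to 0.13, edgeR adjusted p = 0.323), -0.10 without gas 1 and -0.45 without gas 3 (edgeR adjusted p = 0.0456).

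S100A16 (490458), the neighbour of S100A14 in the cluster, had 708, 572 and 468 CPM in gas and 509, 486 and 504 CPM in dCAMP. All dCAMP values lay inside the gas range, and the log2 fold change was -0.22 (SE 0.15, 95% interval -0.59 to 0.14, edgeR adjusted p = 0.356), -0.08 without gas 1 and -0.41 without gas 3 (edgeR adjusted p = 0.0384).

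S100A4 (403787) had 78.7, 64.0 and 55.9 CPM in gas and 68.7, 68.0 and 65.4 CPM in dCAMP. The treated libraries were close together in the middle of the gas range, with means of 66.2 ± 11.6 CPM in gas and 67.4 ± 1.74 CPM in dCAMP (SD, n = 3). The log2 fold change was 0.03 (SE 0.14, 95% interval -0.31 to 0.36, edgeR adjusted p = 0.911), and its sign turned with the gas library left out, at 0.15 without gas 1 and -0.13 without gas 3.

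S100A10 and S100A11 are the members best known as annexin partners. S100A10 (475851), which lacks calcium binding and is held in an active shape, carries annexin A2 to the membrane. It was the steadiest member at 541, 545 and 531 CPM in gas and 549, 575 and 562 CPM in dCAMP. It was also the only member of 10 whose groups did not overlap, with dCAMP above gas, a pattern found in 19% of all genes, and 39.9% of all genes did not overlap in either direction. The means were 539 ± 6.89 and 562 ± 12.7 CPM (SD, n = 3), and the log2 fold change was 0.06 (SE 0.06, 95% interval -0.09 to 0.22, edgeR adjusted p = 0.525). With upper-quartile factors it was -0.03.

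S100A11 (475852), a partner of annexin A1, had 614, 562 and 494 CPM in gas and 497, 503 and 482 CPM in dCAMP. Gas 1 and gas 2 were above all dCAMP libraries, and gas 3 was among them, for a log2 fold change of -0.17 (SE 0.10, 95% interval -0.40 to 0.06, edgeR adjusted p = 0.301), -0.12 without gas 1 and -0.30 without gas 3 (edgeR adjusted p = 0.0309).

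**Figure D3:**
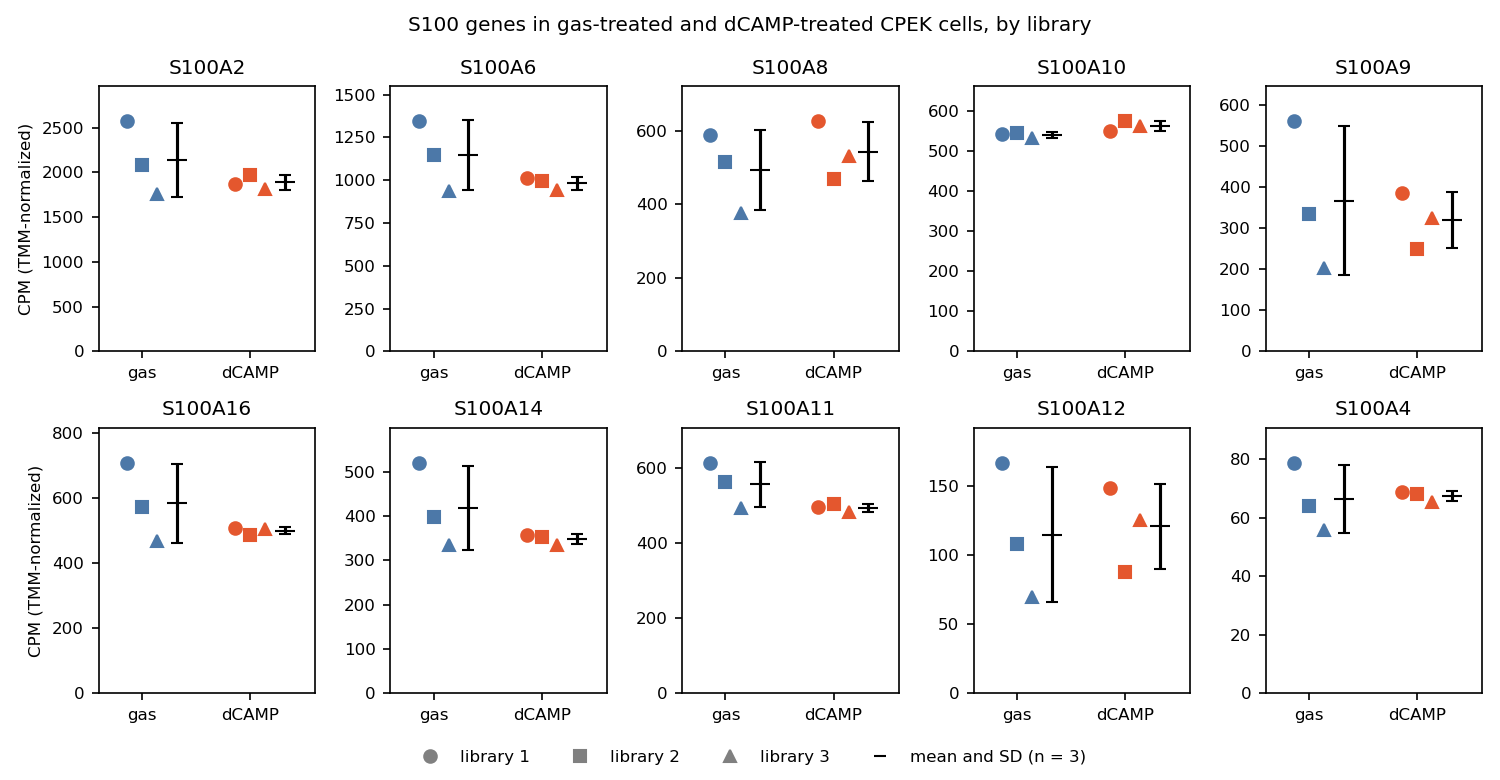
TMM-normalized CPM of each S100 gene in the 3 gas and 3 dCAMP libraries, with the group mean and SD beside the points; axes start at 0. In 9 of the 10 genes gas 1 is the highest gas library, and S100A10 is the only gene whose groups do not overlap.

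The calgranulins varied more between the dCAMP libraries than the other members did, with coefficients of variation of 14.8% for S100A8, 21.5% for S100A9 and 25.4% for S100A12, against 2.14% to 4.23%. In gas, S100A9 and S100A12 varied most, and S100A8 (22.0%) varied about as much as S100A14 (22.5%). S100A8 (490461), the smaller subunit of calprotectin, had 589, 515 and 376 CPM in gas and 628, 469 and 531 CPM in dCAMP. The groups overlapped widely, with dCAMP 1 the highest and gas 3 the lowest library. On the log2 scale the fold change was 0.14 (SE 0.19, 95% interval -0.32 to 0.59, edgeR adjusted p = 0.629), 0.26 without gas 1 and -0.07 without gas 3.

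S100A9 (490463), the partner of S100A8 in calprotectin, had 563, 335 and 205 CPM in gas and 386, 249 and 325 CPM in dCAMP. The coefficient of variation in gas was 49.4%, the largest of any member, and the dCAMP values lay inside the gas range. The log2 fold change was -0.20 (SE 0.37, 95% interval -1.09 to 0.69, edgeR adjusted p = 0.722). It turned from -0.54 without gas 3 to 0.23 without gas 1, so these libraries did not settle its direction, and the interval includes a fall of 2-fold.

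S100A12 (100683919), a calgranulin that signals through the receptor RAGE, had 167, 108 and 69.5 CPM in gas and 149, 88.0 and 126 CPM in dCAMP. Again the dCAMP values lay inside the gas range. dCAMP over gas gave a log2 fold change of 0.07 (SE 0.34, 95% interval -0.75 to 0.90, edgeR adjusted p = 0.896), 0.42 without gas 1 and -0.24 without gas 3.

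The members shared an order of libraries, which was noticed after their values were seen and is given as a description. Gas 1 was the highest gas library in 9 of 10 members and in 43.4% of all genes tested. Gas 3 was the lowest gas library in 10 of 10 members and in 43.7% of all genes. The SD of CPM was larger in gas than in dCAMP in 9 of 10 members, S100A10 being the exception, and in 81.4% of all genes. The dCAMP values lay inside the gas range in 6 members, S100A2, S100A4, S100A6, S100A9, S100A12 and S100A16, and in 17.5% of all genes.

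Within dCAMP, the calgranulins and S100A16 had dCAMP 1 as the highest and dCAMP 2 as the lowest library, an order found in 18.2% of all genes. These 4 members had all 4 positions alike (gas 1 highest, gas 3 lowest, dCAMP 1 highest, dCAMP 2 lowest), as did 8.92% of all genes. Involucrin (IVL), a precursor of the cornified envelope made by differentiating keratinocytes, had the same order, with 1439, 917 and 636 CPM in gas and 1206, 855 and 1081 CPM in dCAMP. So did cornulin (CRNN), a fused-type S100 gene, with 88.4, 47.7 and 24.8 CPM in gas and 61.8, 28.8 and 42.0 CPM in dCAMP. Repetin (RPTN), another fused-type gene, showed it at a lower level, with 11.4, 9.27 and 6.63 CPM in gas and 11.7, 6.79 and 9.78 CPM in dCAMP. IVL, CRNN and RPTN lie on chromosome 17, and the calgranulins on chromosome 7. The differentiated keratinocyte markers as a list, 5 of 6 with a row, summed to 1543 to 2668 TPM in gas and 1979 to 2637 TPM in dCAMP, with KRT1 and KLK5 at 0 counts. These markers did not share an order of libraries. KRT10 was lowest in gas 1, with 21.4, 34.3 and 33.2 CPM in gas and 30.0, 31.1 and 31.5 CPM in dCAMP, and SPINK5 was highest in gas 2 within its group, with 1087, 1255 and 1121 CPM in gas and 1473, 1250.0 and 1341 CPM in dCAMP. The order of the calgranulins was also shown by BSG, by TCHHL1 and by ITGB4, an integrin of basal keratinocytes. The fused-type gene TCHH did not show it, with 1.66, 1.52 and 1.92 CPM in gas and 1.62, 1.42 and 1.77 CPM in dCAMP. Nor did S100P, which was lowest in dCAMP 3 within its group. The part of any of these genes in the calgranulin values was not tested.

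**Figure D4:**
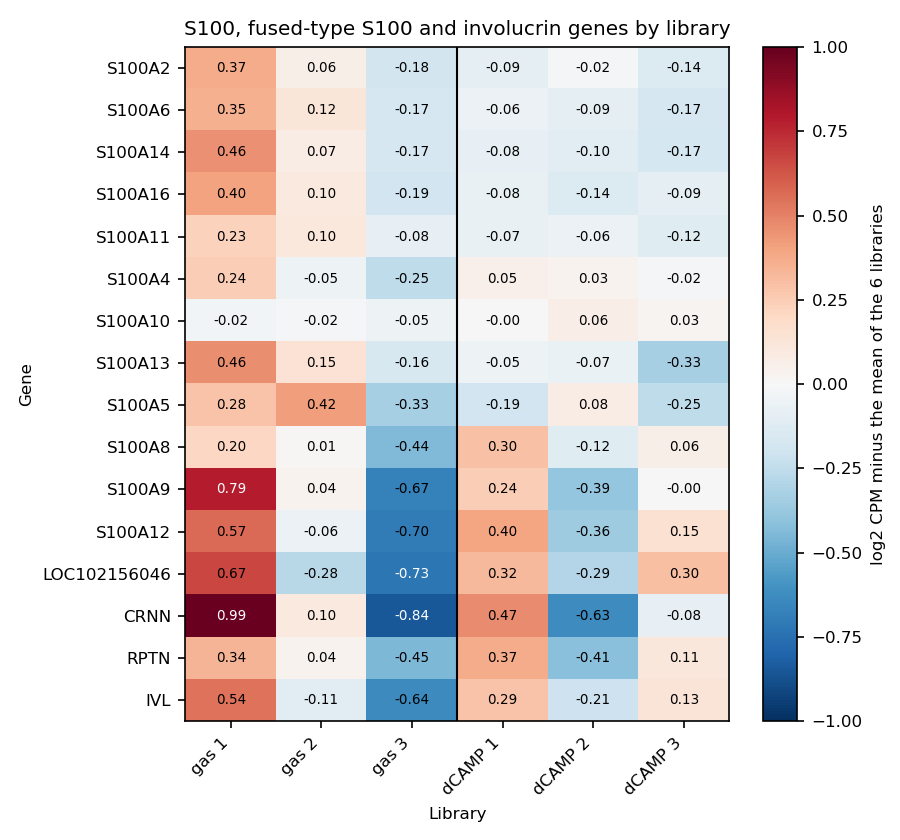
Log2 CPM of each S100 gene, the fused-type genes CRNN and RPTN and involucrin (IVL), each minus its mean over the 6 libraries (columns; red above and blue below the gene's mean). S100A8, S100A9, S100A12, LOC102156046, CRNN, RPTN and IVL are high in gas 1 and dCAMP 1 and low in gas 3 and dCAMP 2, and S100A10 hardly varies.

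Ratios within a library do not depend on normalization between libraries. S100A8 and S100A9 pair in calprotectin, and the ratio of their TPM was 1.94, 2.59 and 3.29 in gas and 2.98, 3.23 and 2.94 in dCAMP. S100A8 thus exceeded S100A9 per length in every library, least so in gas 1. The mean log2 ratio was 1.35 ± 0.38 in gas and 1.61 ± 0.074 in dCAMP (SD, n = 3), a difference of 0.26 that was within the spread of the gas libraries (exact two-sided permutation test, p = 0.4, smallest possible 0.1).

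The ratio of S100A10 to its partner ANXA2 (annexin A2) was 0.257, 0.251 and 0.268 in gas and 0.288, 0.286 and 0.301 in dCAMP. All dCAMP libraries were above all gas libraries. Among single genes, 39.9% did not overlap between the groups in either direction, and the share among ratios of other gene pairs was not taken. The count of S100A10 is less certain, as its locus overlaps another gene. The mean log2 ratio was -1.95 ± 0.047 in gas and -1.78 ± 0.040 in dCAMP (SD, n = 3), a difference of 0.17 (exact two-sided permutation test, p = 0.1, the smallest that 3 against 3 samples allow). With each library left out in turn, the difference stayed between 0.15 and 0.20. On counts it was 0.17, which is no separate check, as each of these genes has 1 transcript and its length is constant.

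Counts per transcript differed in how steadily they were divided. S100A10, S100A11 and S100A12 have 1 transcript each in the table, of 727, 1609 and 482 bases. For S100A2, S100A6 and S100A8, 1 transcript took at least 98.3% of the gene's counts in each library. S100A4 had 81.5% to 93.5% on its reference transcript, and S100A16 was divided between variants X2 (50.6% to 57.2%) and X3 (37.2% to 45.2%). Variants of a gene overlap for most of their length, so these shares are estimates made by the authors' software.

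S100A9 and S100A14 were divided unevenly between libraries. For S100A9, variant X3 (787 bases) took 59.6%, 13.9% and 44.9% of the counts in gas and 54.9%, 22.8% and 46.6% in dCAMP. Variant X2 (645 bases) moved the other way, with 14.5%, 50.6% and 24.0% in gas and 19.9%, 44.5% and 24.1% in dCAMP, so gas 2 and dCAMP 2 stood apart from the rest. For S100A14, variant X1 (1046 bases) took 83.7%, 85.1% and 85.5% in gas and 61.9%, 86.6% and 56.4% in dCAMP. Here dCAMP 1 and dCAMP 3 were low, and dCAMP 2 lay above the gas libraries, so the groups overlapped. No test was made of these shares.

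**Figure D5:**
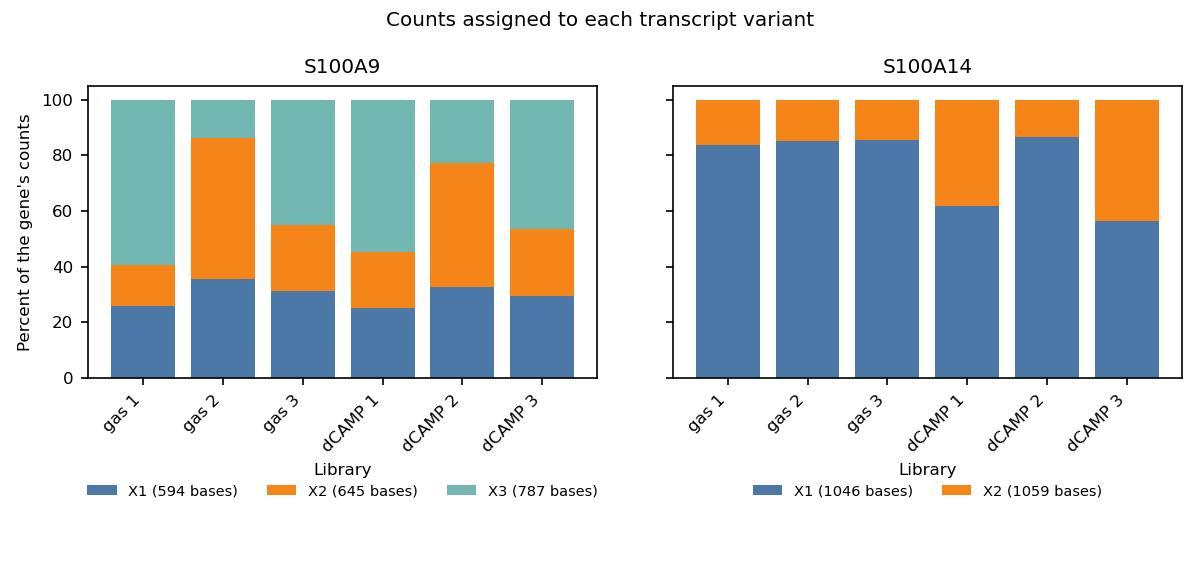
Percent of the counts of S100A9 (left) and S100A14 (right) assigned to each transcript variant, 1 bar per library. In S100A9 the share of X3 is lowest in gas 2 and dCAMP 2, and in S100A14 the share of X1 is lowest in dCAMP 1 and dCAMP 3.

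The known partners, receptors and regulators of S100 proteins were followed as a list of 20 genes, of which 18 passed the filter. The edgeR test called 0 of the 18 by adjusted p and 0 by the 2-fold rule, against 0% and 1.09% of all genes. At an unadjusted p under 0.05 it called 5 (among them ANXA1, MYH9, TLR4 and BSG), against 20.7% of all genes. DESeq2 called 0 by adjusted p, against 2.59% of all genes, and voom with sample quality weights called 14, against 60.8%. Without gas 3, edgeR called 6 of 18, against 33.1% of all genes, among them ANXA2, MYH9 and BSG, lower in dCAMP, and ALCAM and TP63, higher in dCAMP. The median log2 fold change of the 18 was 0.09, beside 0.03 for all genes. Also on the list, without values given here, were ANXA5, ANXA6, ANXA11, AHNAK, PLAT, NPTN and MCAM. The loci of CACYBP, S100PBP, AGER, ALCAM, AHNAK, PLAT and NPTN overlap another gene, which makes their counts less certain.

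Among the partners, annexin A1 (ANXA1), a partner of S100A11, had 1084, 1535 and 1499 CPM in gas and 1797, 1860.2 and 1835 CPM in dCAMP. All dCAMP libraries were above all gas libraries, as in 19% of all genes, and gas 1 was far the lowest. Its log2 fold change was 0.41 (SE 0.14, edgeR adjusted p = 0.222). ANXA2 had 2953, 3047 and 2786 CPM in gas and 2675, 2822 and 2621 CPM in dCAMP, with a log2 fold change of -0.11 (SE 0.07, edgeR adjusted p = 0.321).

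SUGT1, a co-chaperone that binds S100A6, had 4.47, 19.5 and 45.8 CPM in gas and 45.1, 42.9 and 46.1 CPM in dCAMP. Gas 3 was at the treated level, while gas 1 and gas 2 were lower, and the log2 fold change was 0.94 (SE 0.71, edgeR adjusted p = 0.394). CACYBP, the calcyclin-binding protein, was also lowest in gas 1, with 28.1, 94.96 and 135 CPM in gas and 118, 125 and 115 CPM in dCAMP. Here gas 3 lay above all dCAMP libraries, and CACYBP had a log2 fold change of 0.47 (SE 0.50). S100PBP, which binds S100P, had a log2 fold change of 0.41 (SE 0.25).

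Receptors ranged from undetected to well expressed. AGER (RAGE, the receptor for S100A12 and other S100 proteins) had 0 counts in 5 libraries and 15 counts in dCAMP 2, and CD36 had 0 counts in all 6, so neither was tested. TLR4, a receptor for calprotectin, had 4, 10 and 11 counts in gas and 15, 16 and 16 counts in dCAMP. Its log2 fold change was 0.94 (SE 0.33, 95% interval 0.13 to 1.74, edgeR adjusted p = 0.225). BSG (basigin), a receptor for S100A9, was well expressed, with 389.8, 361 and 297 CPM in gas and 293, 284 and 287 CPM in dCAMP, and a log2 fold change of -0.28 (SE 0.11, edgeR adjusted p = 0.240). Its groups did not overlap, with dCAMP below gas, as in 20.9% of all genes. ALCAM, another receptor of this kind, had 101, 183 and 263 CPM in gas and 283, 272 and 308 CPM in dCAMP, with a log2 fold change of 0.66 (SE 0.32, edgeR adjusted p = 0.270).

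TP63, the transcription factor of basal keratinocytes that acts on S100A2, had 164, 181 and 231 CPM in gas and 221, 209 and 223 CPM in dCAMP. Gas 3 was above all dCAMP libraries, while gas 1 and gas 2 were below them, and the log2 fold change was 0.18 (SE 0.14, edgeR adjusted p = 0.394). The values of BSG and TP63 were chosen for print after they were seen.

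The remaining S100 genes and the fused-type S100 genes, which join an S100 domain to long repeats and build the cornified layer, formed a list of 17. Of these, 13 had a row by symbol and 7 passed the filter. The edgeR test called 0 of 7 by adjusted p, by the 2-fold rule or at an unadjusted p under 0.05. Of all genes it called 0%, 1.09% and 20.7% by these rules. DESeq2 called 0 by adjusted p, against 2.59% of all genes. Voom with sample quality weights called 2 of 7 (S100A5 and S100A13, both lower), against 28.2% of all genes called lower. S100A13, which aids the release of growth factors, had 29.1, 23.4 and 18.8 CPM in gas and 20.4, 20.1 and 16.8 CPM in dCAMP, with a log2 fold change of -0.31 (SE 0.18). CRNN had -0.28 (SE 0.49), S100A5 -0.27 (SE 0.22), TCHHL1 0.13 (SE 0.19), S100P 0.11 (SE 0.26) and TCHH -0.08 (SE 0.17) as log2 fold changes. The loci of S100P and S100A13 overlap another gene, so their counts are less certain.

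Other genes of the family were close to undetected. S100B, S100G and S100Z had 0 counts in all libraries, which allows up to 3 counts in each by counting error alone. S100A1, whose locus overlaps S100A13, had 0 to 11 counts, S100A3 had 0 to 3 and the profilaggrin gene FLG had 0 to 11. S100A7, S100A7A, FLG2 and HRNR had no row by symbol and were not analysed here. LOC102156046, described in the files as an S100-like gene and noticed after its values were seen, lies between S100A6 and S100A8 and had 8.77, 4.56 and 3.34 CPM in gas and 6.90, 4.50 and 6.79 CPM in dCAMP. Its library order was that of the calgranulins, and its log2 fold change was 0.13 (SE 0.38, edgeR adjusted p = 0.828).

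The genes with profiles nearest to S100A2, by the root mean square distance of centred log2 CPM over 6 libraries among 14707 genes, were SPSB3 (0.0203), LOC612687 (0.0220) and LOC102152648 (0.0318), a tubulin beta-4B-like gene. For S100A14 the nearest profiles were those of ARRDC2 (0.0236) and RRAS (0.0292). The SD of each member's own profile was 0.18 for S100A2 and 0.22 for S100A14. These distances were picked as the smallest among 14707 genes over 6 libraries, so their small size follows from that choice. They were not compared with the nearest distances of other genes.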

How the data were processed

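RNA-Seq was carried out on 3 gas-treated and 3 dCAMP-treated CPEK libraries (TruSeq Stranded mRNA). The authors removed adapters, contaminants and PCR duplicates (FastQC 0.11.7, Trimmomatic 0.38), used HISAT2 2.1.0 for mapping to CanFam3.1 and summarized known transcripts with StringTie 2.1.3b. The annotation release and the handling of strand are not given in the sources used here. Deposited gene and transcript counts are whole numbers with no normalization. FPKM values were scaled by the authors for length and mapped reads, and the deposited TPM values for length and to a fixed sum. Total counts of 43084921 to 54082634 gave the members 2914 to 119368 counts per library, a counting error of 0.289% to 1.85%, which does not include differences between samples.

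Gene counts were tested in 1 fit over the whole table with edgeR 4.0.16 (R 4.3.3; TMM factors, filterByExpr, quasi-likelihood F test, prior count 2), with Benjamini-Hochberg adjustment over 14708 genes. The SE was the log2 fold change divided by the root of F. FPKM gave the order of levels, and ratios used TPM plus 0.1. Coordinates were taken from the transcript table (CanFam3.1, counted from 1). All 10 member IDs were found in the RefSeq table of UU_Cfam_GSD_1.0, from which names alone were used. The steps were tested on simulated data.

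The 10 members and the lists of partners, receptors, regulators, other S100 genes and cell markers were chosen with earlier results of these data known, so no list was given a test of its own. The naming rule gave all members, the listed genes with values for up to 6 per list with the largest change and for ANXA2, and the 3 genes with the nearest profile to the member with the highest FPKM and to that with the largest change, apart from 1 such gene and 1 listed regulator that are not reported here. The alternatives were RLE and upper-quartile factors, no filter or at least 10 counts in every library, DESeq2 1.42.0 on all genes with a count or with at least 1 count in every library, limma 3.58.1 (voom with sample quality weights, and log2 FPKM plus 1 or plus 0.1), a gene length correction (lowess, span 0.3), the replicate number as a block, the block with the length correction, and leaving out each library. Ratios of counts plus 1 and shares of counts stood in for TPM.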

Additional observations from a re-analysis of the deposited data

How the results depend on the processing

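Of 180 values of a single S100 gene under the alternatives, 156 kept their direction and side of the threshold, 9 kept the direction with an adjusted p under 0.05, and 15 had the opposite sign, 0 of those with an adjusted p under 0.05. With voom and sample quality weights, 5 members, 14 partners, receptors and regulators and 2 other S100 genes were called by adjusted p, as were 60.8% of all genes. In edgeR with all libraries, 0 of each list and 0% of all genes were called. The cause was not tested. With each library left out in turn, 0 to 4 members and 0 to 6 partners, receptors and regulators were called by adjusted p. Of the latter, 0 to 2 were called by the 2-fold rule. The highest counts were those without gas 3, where 33.1% of all genes were called by adjusted p. The share of all genes called by the 2-fold rule was taken only for edgeR with all 6 libraries, at 1.09%. Among the partners, receptors and regulators, that rule called TLR4 in DESeq2 with at least 1 count in every library. It called SUGT1 with voom and with the replicate block and length correction, and SUGT1 and TLR4 without gas 3. The members' median log2 fold change of -0.18 ranged from -0.32 without gas 3 to 2.46e-05 without gas 1.

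Signs turned for 5 members, each with an interval that includes 0. S100A4 was at -0.075 with upper-quartile factors, -0.0013 with at least 10 counts in every library, -0.059 with the length correction and -0.036 with the block and length correction, and from -0.13 to 0.15 with a library left out. S100A12 was at -0.043 with upper-quartile factors and -0.022 with the length correction, and from -0.24 to 0.42 with a library left out. S100A10 was at -0.028 with upper-quartile factors. With a library left out, S100A8 ranged from -0.072 to 0.26 and S100A9 from -0.54 to 0.23. The length correction moved the median of all genes from 0.03 to -0.14 and that of the members from -0.18 to -0.24.

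Libraries with the same number deviated from their group means with correlations of 0.252, 0.0656 and 0.103. Between different numbers the correlations were -0.165, -0.0808, -0.0398, -0.0313 and -0.272, and 0.164 for gas 3 with dCAMP 2. Gas 1 and gas 2 correlated best with the dCAMP library of their own number, and gas 3 with dCAMP 2. Deviations from a group mean cancel within the group for each gene, so these correlations depend on each other. They cannot decide whether the numbers are pairs. The labels do not say that the numbers are pairs, and the main test did not take them as pairs. With the replicate block, 0 members were called by adjusted p and 0 by the 2-fold rule, as without it. The members had 2914 counts or more in each library, and the effect of depth on their calls was not tested. AGER, S100A1, S100A3 and FLG, with at most 15 counts in a library, did not pass the filter and were not tested. TLR4 rests on 4 to 16 counts per library.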
